A study of Mus musculus with 8 samples.

Results

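The genes described here mark immune cells, sorted by lineage, in RNA from uterine stromal cells of mice. They were chosen by name, as 39 listed genes of leukocytes in general, macrophages, antigen presentation, T cells, natural killer (NK) cells, B cells, neutrophils and mast cells. All 39 were found among the 23420 gene symbols of the count tables, 38 under the listed symbol and Adgre1 under its older symbol Emr1. Polyadenylated RNA was read from 8 day 3 libraries, with 4 each under the labels Erbb3f/f and Erbb3d/d. By mouse convention f denotes a floxed allele and d its Cre-deleted form. The labels name no Cre line, no event from which day 3 is counted, no age and no number of animals per library, nor whether replicates came from separate animals, so p-values measure the spread between these libraries only, which may be technical. All 8 libraries carry the label of stromal cells, and the deletion is the only stated difference between the groups.

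The uterus holds many leukocytes among its stromal cells, and their mix shifts with the ovarian hormones and with pregnancy. Uterine macrophages take up cell debris and secrete complement C1q. Antigen-presenting cells show peptides on MHC class II molecules to T cells carrying the CD4 coreceptor. Uterine NK cells carry the receptor NKp46, depend on interleukin 15 and store granzymes and perforin in their granules. Neutrophils enter the tissue from the blood, and mast cells and eosinophils are resident or recruited granulocytes of the same tissue.

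NK cell genes were the lineage with the lowest values in the libraries labelled Erbb3d/d relative to Erbb3f/f, so the sequence upstream of 3 of them is shown first. The RUNX family of transcription factors, which acts in cytotoxic lymphocytes, recognises the core letters TGTGGT. That core was looked for on both strands in the 250 bases before the RefSeq start (GRCm38.p6), after the expression values and these sequences had been seen. It occurred in all 6 NK cell genes, in 12 of the 29 members that had an entry, and in 14.0% of all 32851 windows of that length. The windows of Gzmb (chr14:56262335-56262584, minus strand), Prf1 (chr10:61297586-61297835, plus strand) and Ncr1 (chr7:4337474-4337723, plus strand) are written 5′ to 3′ along the gene, with the core in capitals as TGTGGT or, on the other strand, ACCACA.
Gzmb: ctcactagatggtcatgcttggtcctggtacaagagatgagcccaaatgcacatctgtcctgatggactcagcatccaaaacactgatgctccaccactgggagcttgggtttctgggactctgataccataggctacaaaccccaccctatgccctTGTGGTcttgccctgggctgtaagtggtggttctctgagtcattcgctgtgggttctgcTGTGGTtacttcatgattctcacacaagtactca
Prf1: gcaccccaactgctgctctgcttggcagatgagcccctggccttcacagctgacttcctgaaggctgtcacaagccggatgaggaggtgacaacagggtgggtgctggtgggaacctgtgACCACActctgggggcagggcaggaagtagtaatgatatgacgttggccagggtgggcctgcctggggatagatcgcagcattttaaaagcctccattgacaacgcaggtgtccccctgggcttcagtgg
Ncr1: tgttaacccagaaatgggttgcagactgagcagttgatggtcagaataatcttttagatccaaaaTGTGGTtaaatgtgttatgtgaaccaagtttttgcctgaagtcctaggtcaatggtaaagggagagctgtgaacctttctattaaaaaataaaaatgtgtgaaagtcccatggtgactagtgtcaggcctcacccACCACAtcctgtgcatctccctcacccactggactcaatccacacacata
Gzmb held 2 copies, both on the strand of the gene and the nearer one ending 29 bases before the start. Prf1 held 1 copy and Ncr1 held 2.

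Among the members, MHC class II genes varied least between libraries, and the windows of 2 of them show the element for which this family is known. The Y box, bound by the factor NF-Y, was searched as CTGATTGG on both strands and is in capitals in H2-Aa (chr17:34287824-34288073, minus strand) and H2-Eb1 (chr17:34305617-34305866, plus strand).
H2-Aa: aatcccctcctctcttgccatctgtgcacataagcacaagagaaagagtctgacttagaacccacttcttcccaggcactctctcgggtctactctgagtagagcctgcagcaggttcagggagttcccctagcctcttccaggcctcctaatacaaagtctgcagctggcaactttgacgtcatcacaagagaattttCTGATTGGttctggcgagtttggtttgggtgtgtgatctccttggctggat
H2-Eb1: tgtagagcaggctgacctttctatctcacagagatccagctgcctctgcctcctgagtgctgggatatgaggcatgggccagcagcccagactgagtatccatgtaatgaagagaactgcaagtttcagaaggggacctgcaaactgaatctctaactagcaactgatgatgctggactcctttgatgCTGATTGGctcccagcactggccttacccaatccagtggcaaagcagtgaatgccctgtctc
It lay 51 to 44 bases before the start in H2-Aa and 62 to 55 bases before it in H2-Eb1. Those were the only 2 of the 29 members with an entry that held it, against 3.83% of all windows. A match of letters is a description of the window and not a binding site.

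Between 8578575 and 12854367 reads per library fell in genes, and 14598 genes passed the filter on low counts. Expression is given in CPM, the reads of a gene per 1000000 reads of scaled library size, and a log2 fold change is Erbb3d/d over Erbb3f/f. Erbb3 itself had 7.40, 10.6, 8.25 and 12.3 CPM in Erbb3f/f replicates 1 to 4 and 7.37, 14.3, 17.7 and 16.2 CPM in Erbb3d/d replicates 1 to 4 (adjusted p = 0.485, edgeR's quasi-likelihood test). The targeted gene was thus not lower under the label Erbb3d/d. Gene-level counts pool any deleted exon with the intact ones, so they do not check the labels, and every direction below follows the labels. All 12 stromal markers were detected in every library, with a summed level of 11363 to 16758 CPM. Markers of other cells were also present, and by edgeR 9 of 10 smooth muscle and 8 of 13 epithelial genes were higher at an unadjusted p under 0.05, against 6.64% of all genes, with 0 of 12 endothelial genes. Of the 12 stromal genes 4 were lower at that p (33.3%), against 4.97% of all genes. The genotypes did not overlap for 2 of the 12, both lower, against 2.48% of all genes in that direction. They also did not overlap for 3 of 13 epithelial and 2 of 10 smooth muscle genes, all higher, against 2.56% of all genes. Among endothelial genes it was 0 of 12. The summed level of 13 epithelial genes was 929 to 1479 CPM in Erbb3f/f and 1405 to 2282 CPM in Erbb3d/d, and that of 10 smooth muscle genes was 1278 to 2353 and 1996 to 4654 CPM. For 12 endothelial genes it was 320 to 611 and 325 to 634 CPM. Epcam had 60.8 to 107 CPM in Erbb3f/f and 101 to 201 CPM in Erbb3d/d, Myh11 119 to 336 and 356 to 865 CPM, Pecam1 34.6 to 70.2 and 41.6 to 70.8 CPM, and Pdgfra 817 to 999 and 520 to 721 CPM. The part of these other cells in the immune values was not tested.

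Single libraries stood apart in ways that touch the immune genes. Erbb3f/f replicate 3 had the highest value of all 8 libraries for 21 of the 39 members, and Erbb3f/f replicate 2 the lowest for 16. Erbb3d/d replicate 2 was close to the Erbb3f/f libraries for NK cell genes, and leaving it out raised the number of genes called over the whole table from 0 to 259. Where leaving out 1 library changes a call or moves a fold change by over 1.5 times, the value without it stands beside the result or in the closing section.

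Per kilobase of merged exon, the mean level over all 8 libraries was highest for Lyz2, a lysozyme of macrophages and neutrophils, at 825 CPM per kb. Cd74, the invariant chain of MHC class II, followed at 354 CPM per kb, then C1qb at 242 and C1qa at 236 CPM per kb. The general leukocyte gene Laptm5 reached 79.6 CPM per kb. Gzmb, at 31.2 CPM per kb, was the most abundant lymphocyte gene among the members and stood above the T cell genes, of which Cd4 was the highest at 2.47 CPM per kb. The B cell gene Ms4a1 came last at 0.0388 CPM per kb, with 0 to 7 reads per library. Macrophage and MHC class II genes thus had the highest levels per length.

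**Figure D1:**
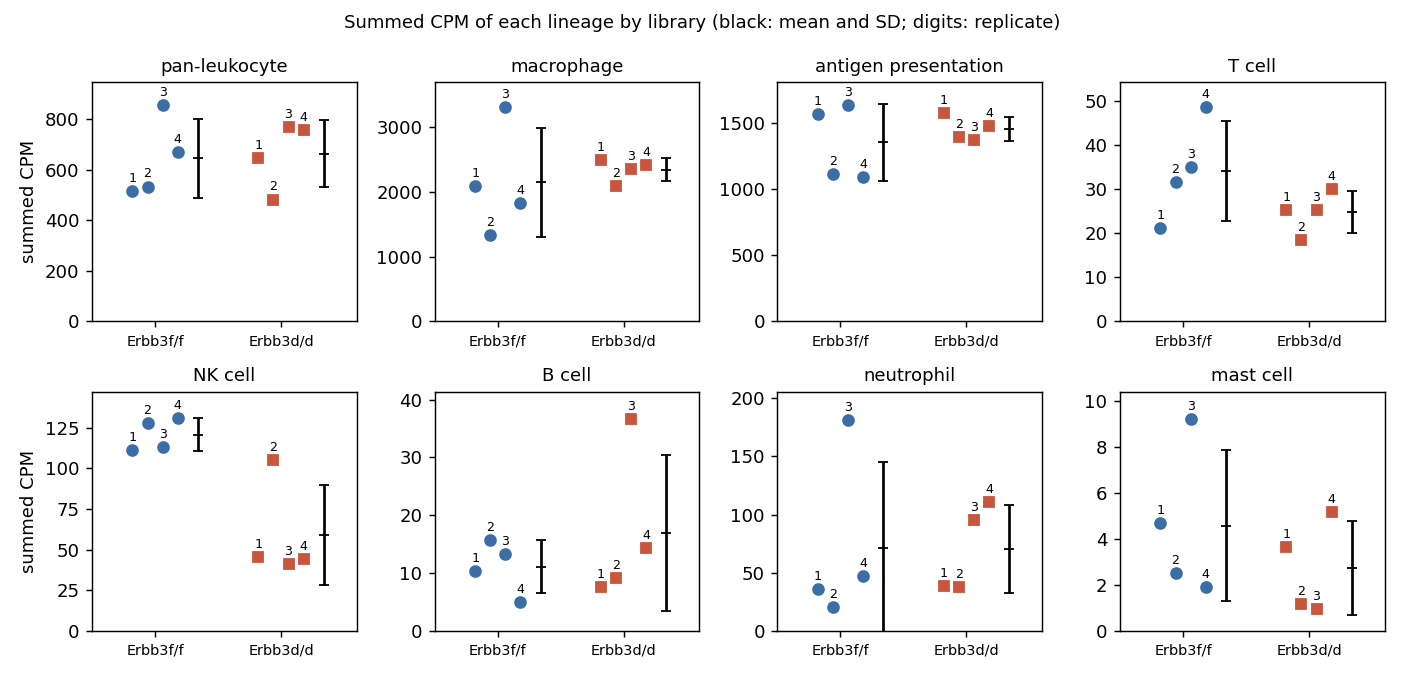
Summed CPM of the members of each lineage (y axis, linear from 0) for the 4 Erbb3f/f and 4 Erbb3d/d libraries (x axis); points are libraries with their replicate number, and black marks are the mean and SD, cut at 0 for neutrophils. In the NK cell panel Erbb3d/d replicates 1, 3 and 4 lie at 41.1 to 45.7 CPM, replicate 2 at 105 CPM and the Erbb3f/f libraries at 111 to 131 CPM.

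The comparison of the genotypes asked which immune lineages differ in day 3 stroma when Erbb3 is targeted. By edgeR's quasi-likelihood test, 0 of 38 members passed an adjusted p of 0.05, and 0 of all 14598 genes did (0%). Of the 38 members that passed the filter, 5 had an unadjusted p under 0.05 in that test, which is 13.2% and close to the 11.6% of all genes. They were Cd163, which was higher, and Gzmb, Prf1, Ncr1 and Nkg7, which were lower. Lower members made up 4 of 38 (10.5%), against 4.97% of all genes, and higher ones 1 of 38, against 6.64%. The genotypes did not overlap for 2 of 38 members, against 5.04% of all genes, with Cd163 higher, as 2.56% of all genes were, and Gzmb lower, as 2.48% were. The median log2 fold change was 0.00 over the members and -0.01 over all genes tested. DESeq2 called Cd163 (adjusted p = 0.0306) and Gzmb (adjusted p = 0.0251), where it called 1.62% of the genes with an adjusted p.

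**Figure D2:**
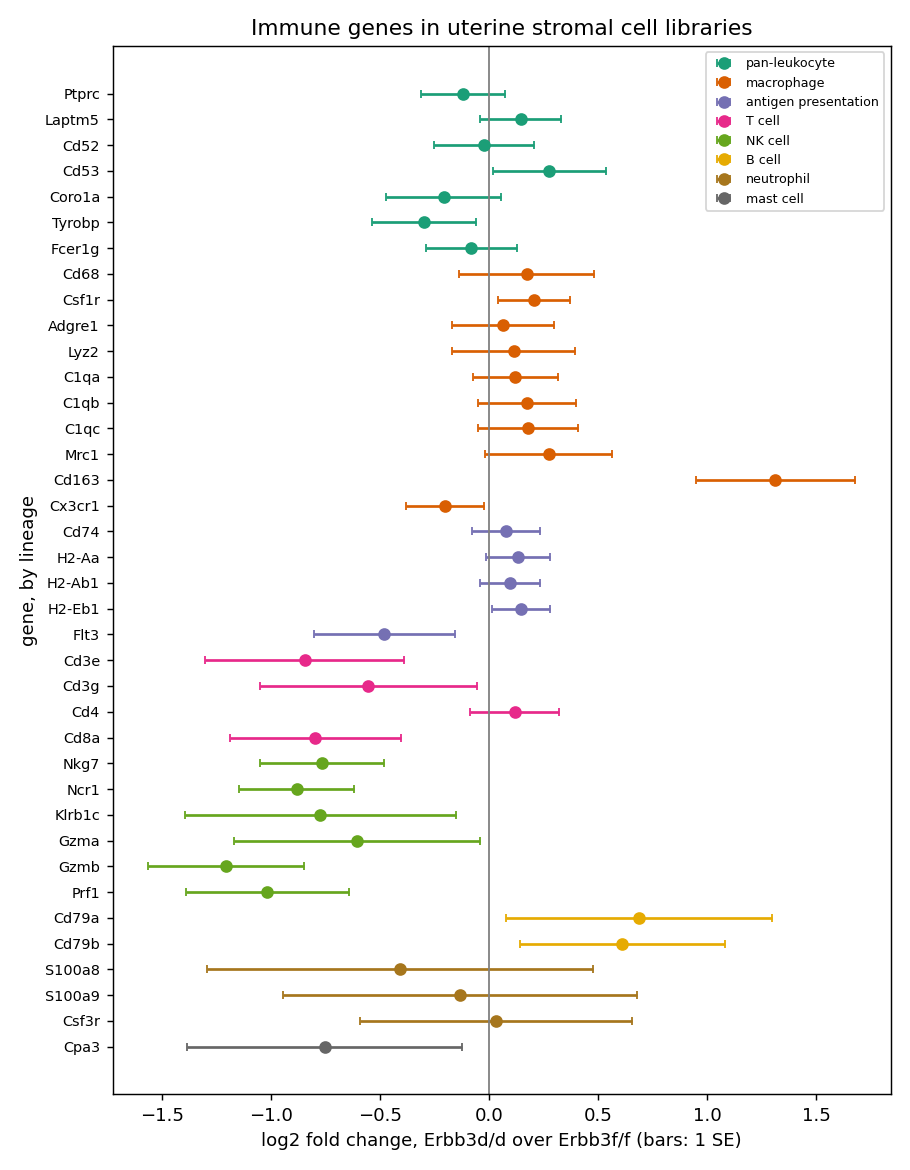
Log2 fold change, Erbb3d/d over Erbb3f/f (x axis), of the 38 members that passed the filter, by lineage (y axis and colour); bars are 1 SE from edgeR. All 6 NK cell genes lie below 0, from -1.21 to -0.60, and Cd163 lies farthest above 0 at 1.31.

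Among the lineages with at least 3 members tested, NK cells were the only one in which every member pointed the same way. All 6 were lower in Erbb3d/d, where 52.0% of all genes were, with a median log2 fold change of -0.83 against -0.01 over all genes. An unadjusted p under 0.05 by edgeR was found for 4 of the 6, against 4.97% of all genes in the lower direction. Their summed level was 111, 128, 113 and 131 CPM in Erbb3f/f replicates 1 to 4 and 45.7, 105, 41.1 and 44.0 CPM in Erbb3d/d replicates 1 to 4. The sums did not overlap, but the closest libraries were 105 and 111 CPM. In these bulk libraries fewer cells of a type and less RNA per cell cannot be told apart.

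Gzmb encodes granzyme B, a serine protease that kills target cells once it enters them. Its position is chromosome 14, 56258838 to 56262260 of GRCm38 (minus strand, 5 merged exons in GENCODE vM21). It had 69.6, 64.8, 62.8 and 52.2 CPM in Erbb3f/f replicates 1 to 4, which rest on 715, 619, 799 and 462 reads. The values of Erbb3d/d replicates 1 to 4 were 24.9, 52.1, 16.5 and 15.5 CPM, from 253, 447, 209 and 177 reads. Replicates 1, 3 and 4 of Erbb3d/d were well below every Erbb3f/f library, while replicate 2 lay just under the lowest of them. Erbb3f/f averaged 62.4 ± 7.34 CPM (SD, n = 4), against 27.3 ± 17.1 CPM (SD, n = 4) for Erbb3d/d. This gave a log2 fold change of -1.21 (SE 0.36; adjusted p = 0.304) by edgeR. Without Erbb3d/d replicate 2 it was -1.72 (SE 0.18), adjusted p = 0.00517, while without Erbb3d/d replicate 4 the adjusted p was 0.687, the highest of all alternatives.

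Prf1 encodes perforin, the pore protein that lets granzymes into target cells. Its position is chromosome 10, 61297833 to 61304680 on the plus strand. It had 18.5, 25.3, 20.4 and 36.0 CPM in Erbb3f/f replicates 1 to 4 and 6.09, 22.7, 10.5 and 10.4 CPM in Erbb3d/d replicates 1 to 4. Only Erbb3d/d replicate 2 overlapped the Erbb3f/f range. This gave a log2 fold change of -1.02 (SE 0.37; adjusted p = 0.355) by edgeR. Without that library it was -1.46 (SE 0.28), adjusted p = 0.0355, and the highest adjusted p of the alternatives was 0.742, without Erbb3d/d replicate 4. Leaving out Erbb3d/d replicate 2 brought 1.75% of all genes under the adjusted threshold, 0.785% in the lower direction.

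Ncr1 encodes NKp46, an activating receptor found on NK cells and related innate lymphoid cells. Its position is chromosome 7, 4337724 to 4345164. It had 8.08, 11.1, 13.7 and 13.6 CPM in Erbb3f/f replicates 1 to 4 and 4.23, 8.17, 5.36 and 7.55 CPM in Erbb3d/d replicates 1 to 4. The groups overlapped only by Erbb3d/d replicate 2, which was just above Erbb3f/f replicate 1. Its log2 fold change of -0.88 (SE 0.26) had adjusted p = 0.294 by edgeR. Nkg7, a granule membrane protein of NK cells and cytotoxic T cells, had 9.94, 12.5, 12.4 and 14.7 CPM in Erbb3f/f and 5.90, 11.8, 4.49 and 7.11 CPM in Erbb3d/d, replicates 1 to 4 in order. Erbb3d/d replicate 2 was again within the Erbb3f/f range and the other 3 below it. The log2 fold change of Nkg7 was -0.77 (SE 0.28), adjusted p = 0.348. Without Erbb3d/d replicate 2 the adjusted p was 0.0834 for Ncr1 and 0.0523 for Nkg7 by edgeR.

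The remaining NK cell members did not separate the genotypes. Klrb1c, the surface receptor NK1.1, had 3.90, 11.6, 2.83 and 9.27 CPM in Erbb3f/f and 3.34, 9.21, 2.29 and 1.49 CPM in Erbb3d/d, replicates 1 to 4 in order. Erbb3f/f replicates 2 and 4 and Erbb3d/d replicate 2 stood above the other 5 libraries, so its spread cut across the labels. The log2 fold change of Klrb1c was -0.77 (SE 0.62), and -1.53 without Erbb3d/d replicate 2. Gzma, granzyme A, had 0.707 to 5.43 CPM in Erbb3f/f, from 9 to 48 reads, and 1.28 to 1.97 CPM in Erbb3d/d, and its log2 fold change of -0.60 (SE 0.57) turned to 0.08 without Erbb3f/f replicate 4. Klrb1c overlaps another annotated gene on its own strand, Klrb1c and the granzyme genes have close relatives, and their counts are uncertain to that extent.

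**Figure D3:**
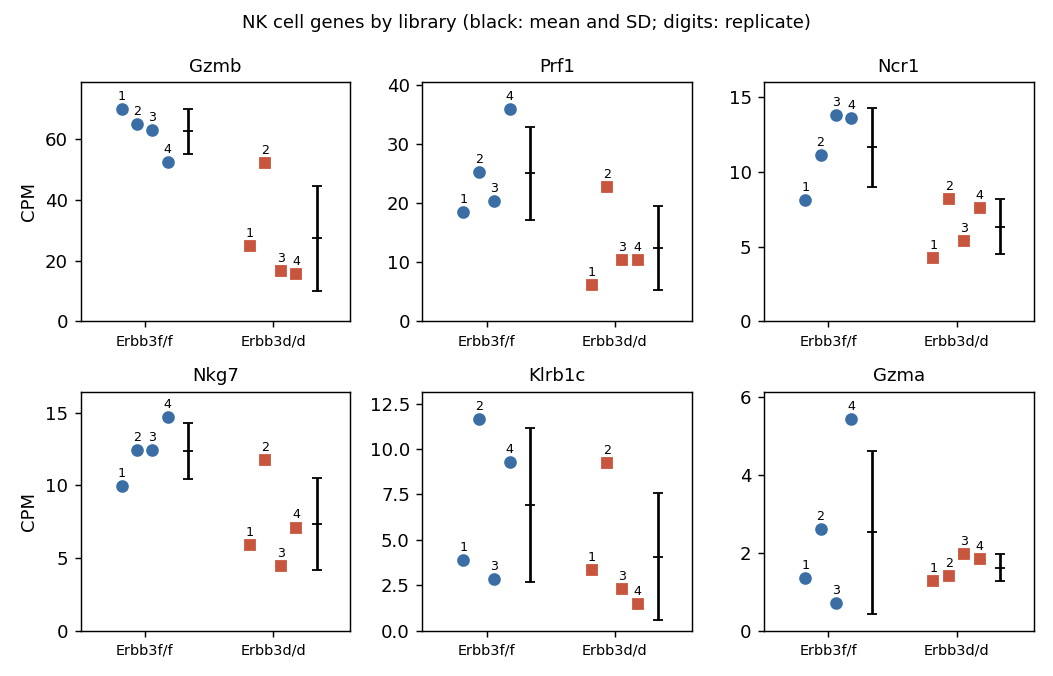
CPM (y axes, linear from 0) of the 6 NK cell genes in the 4 Erbb3f/f and 4 Erbb3d/d libraries (x axis); points are libraries with their replicate number, black marks the mean and SD. In Gzmb, Prf1, Ncr1 and Nkg7 Erbb3d/d replicates 1, 3 and 4 lie below all Erbb3f/f libraries, and replicate 2 is the highest of its label.

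The level of cytotoxic genes was also set against Ptprc, the leukocyte antigen CD45, in the same library. For Erbb3f/f replicates 1 to 4 the ratio of Gzmb to Ptprc was 0.772, 0.617, 0.367 and 0.377, against 0.214, 0.564, 0.132 and 0.118 for Erbb3d/d replicates 1 to 4. The ratio of Ncr1 to Ptprc was 0.0803 to 0.106 in Erbb3f/f and 0.0363, 0.0883, 0.0430 and 0.0573 in Erbb3d/d replicates 1 to 4. Relative to CD45, Erbb3d/d replicates 1, 3 and 4 were again below all Erbb3f/f libraries for both genes, and replicate 2 was among them. The genotypes thus overlapped for the ratio of Gzmb to Ptprc, although they did not overlap for Gzmb in CPM. The ratio of Gzmb to Ncr1 overlapped, at 3.85 to 8.61 in Erbb3f/f and 2.06 to 6.39 in Erbb3d/d.

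A further list of 13 NK cell genes was read in the same way from the same libraries. It was chosen with earlier results of these data known, so its direction is no separate support. Of the 13 genes, 9 passed the filter and all 9 were lower, with a median log2 fold change of -0.48, and 52.0% of all genes tested were lower. An unadjusted p under 0.05 by edgeR was found for 2 of the 9, against 4.97% of all genes for lower values, and 0 passed the adjusted threshold. Il2rb, the interleukin 2 and 15 receptor subunit on which NK cells depend, was the most abundant per kilobase. It had 60.2, 97.7, 92.7 and 117 CPM in Erbb3f/f replicates 1 to 4 and 58.5, 67.9, 53.8 and 52.0 CPM in Erbb3d/d replicates 1 to 4. Here Erbb3f/f replicate 1 overlapped the Erbb3d/d range and Erbb3d/d replicate 2 was the highest of its label. Its log2 fold change of -0.66 (SE 0.18) had adjusted p = 0.280. The other was Eomes, a transcription factor of NK cells named after its values were seen, with a log2 fold change of -0.99 (SE 0.39) and an adjusted p of 0.377. Eomes overlaps an opposite-strand gene, and the libraries do not mark strand. Klra4 and Klra8 had 0 reads in every library.

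T cell genes were low and did not separate the genotypes. Cd3e, a signalling chain of the T cell receptor, had 4.87, 9.42, 13.4 and 19.4 CPM in Erbb3f/f and 7.27, 2.33, 7.96 and 8.42 CPM in Erbb3d/d, replicates 1 to 4 in order. Its relative Cd3g had 3.21 to 9.05 CPM in Erbb3f/f and 0.817 to 5.31 CPM in Erbb3d/d. Erbb3d/d replicate 2 was the lowest of all 8 libraries for both, from 20 and 7 reads, although it was high for NK cell genes. Cd8a, the coreceptor of cytotoxic T cells, had 3.99 to 9.38 CPM in Erbb3f/f and 2.05 to 6.49 CPM in Erbb3d/d, with a log2 fold change of -0.80 (SE 0.39) and an adjusted p of 0.466 by edgeR. Cd4, which some macrophages also carry, had 7.54 to 10.9 and 8.16 to 12.6 CPM, with a log2 fold change of 0.12 (SE 0.20). In a further list of 15 T cell genes, 11 were in the tables and passed the filter, 5 were higher and 6 lower, and 0 passed the adjusted threshold by edgeR. An unadjusted p under 0.05 by edgeR was found for 1 of the 11 (9.09%), which was higher, against 6.64% of all genes for higher values. It was Cd28, a costimulatory receptor named after its values were seen, at a log2 fold change of 0.89 (SE 0.31) and adjusted p = 0.337. Cd247, a signalling chain shared by T and NK cells, was the most abundant of them per kilobase, with 36.1 ± 7.23 CPM (SD, n = 4) for Erbb3f/f, against 41.9 ± 6.71 CPM (SD, n = 4) for Erbb3d/d. Its reads may include those of a gene on the other strand.

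Genes of leukocytes in general showed no shared direction. Ptprc had 90.2, 105, 171 and 139 CPM in Erbb3f/f and 116, 92.5, 125 and 132 CPM in Erbb3d/d, replicates 1 to 4 in order, so the Erbb3d/d values lay inside the Erbb3f/f range. Its log2 fold change was -0.12 (SE 0.19). Laptm5, a lysosomal membrane protein of blood cells, had 233 to 377 CPM in Erbb3f/f and 230 to 365 CPM in Erbb3d/d. The tetraspanin Cd53 had 42.0 to 78.5 and 40.0 to 82.6 CPM, and the actin regulator Coro1a 26.3 to 55.1 and 25.2 to 46.7 CPM, in Erbb3f/f and Erbb3d/d in that order. Cd52, a small surface antigen, had 47.3 to 69.8 CPM in Erbb3f/f and 40.1 to 88.6 CPM in Erbb3d/d, and like Coro1a it overlaps a gene on the other strand. The signalling adaptors Tyrobp and Fcer1g, which serve activating receptors of macrophages and NK cells, had log2 fold changes of -0.30 (SE 0.24) and -0.08 (SE 0.21). Over the 7 genes the summed level was 644 ± 157 CPM (SD, n = 4) for Erbb3f/f, against 663 ± 133 CPM (SD, n = 4) for Erbb3d/d.

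Among macrophage genes Cd163 stood out, and the others differed little. Cd163 encodes the receptor by which tissue macrophages take up haemoglobin bound to haptoglobin. Its position is chromosome 6, 124304656 to 124330527 on the plus strand, with 16 merged exons. It had 5.07, 3.98, 5.50 and 8.25 CPM in Erbb3f/f replicates 1 to 4, which rest on 52, 38, 70 and 73 reads. The values of Erbb3d/d replicates 1 to 4 were 14.9, 8.75, 8.59 and 24.2 CPM, from 152, 75, 109 and 276 reads. The groups did not overlap, but Erbb3d/d replicates 2 and 3 were just above the highest Erbb3f/f library and replicates 1 and 4 far above it. Erbb3f/f averaged 5.70 ± 1.82 CPM (SD, n = 4), against 14.1 ± 7.35 CPM (SD, n = 4) for Erbb3d/d. This gave a log2 fold change of 1.31 (SE 0.37; adjusted p = 0.281) by edgeR. Over all alternatives the adjusted p ran from 0.0306 with DESeq2 to 0.648, the highest being without Erbb3d/d replicate 4, where the log2 fold change was 0.92. Relative to other macrophage genes the labels overlapped. The ratio of Cd163 to C1qa was 0.0182 to 0.0379 in Erbb3f/f and 0.0350 to 0.0921 in Erbb3d/d. That of Cd163 to Mrc1 was 0.0959 to 0.246 in Erbb3f/f and 0.206 to 0.370 in Erbb3d/d.

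Some other genes had their highest values in the same libraries. Lyve1, a hyaluronan receptor of lymphatic endothelium and of some resident macrophages, had 48.0, 45.6, 34.8 and 20.01 CPM in Erbb3f/f and 106, 41.4, 22.5 and 110 CPM in Erbb3d/d, replicates 1 to 4 in order. Prox1, a transcription factor of lymphatic endothelium that overlaps a gene on the other strand, had 4.64 to 10.9 CPM in Erbb3f/f and 16.9, 8.98, 6.70 and 23.8 CPM in Erbb3d/d replicates 1 to 4. Myh11, the smooth muscle myosin, had 865, 365, 356 and 540 CPM in Erbb3d/d replicates 1 to 4. Replicates 1 and 4 were thus the highest Erbb3d/d libraries for all of them and for Cd163. Within Erbb3d/d, the endothelial genes Flt4 and Cldn5 were also highest in replicates 1 and 4. Pecam1, Cdh5, Emcn and Vwf were highest in replicate 2. Kdr, Tie1, Tek, Egfl7 and Eng were highest in replicate 1 and next in replicate 2. Of the smooth muscle list only Synpo2 was highest in replicate 2, at 707 CPM. Lyve1 and Prox1 were chosen after their values were seen, and the part of lymphatic or muscle cells in the value of Cd163 was not tested. Mrc1, the mannose receptor of the same kind of macrophage, had 52.8, 23.7, 38.0 and 33.6 CPM in Erbb3f/f and 43.9, 42.5, 27.4 and 65.4 CPM in Erbb3d/d. It overlapped between the groups, with a log2 fold change of 0.27 (SE 0.29).

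**Figure D4:**
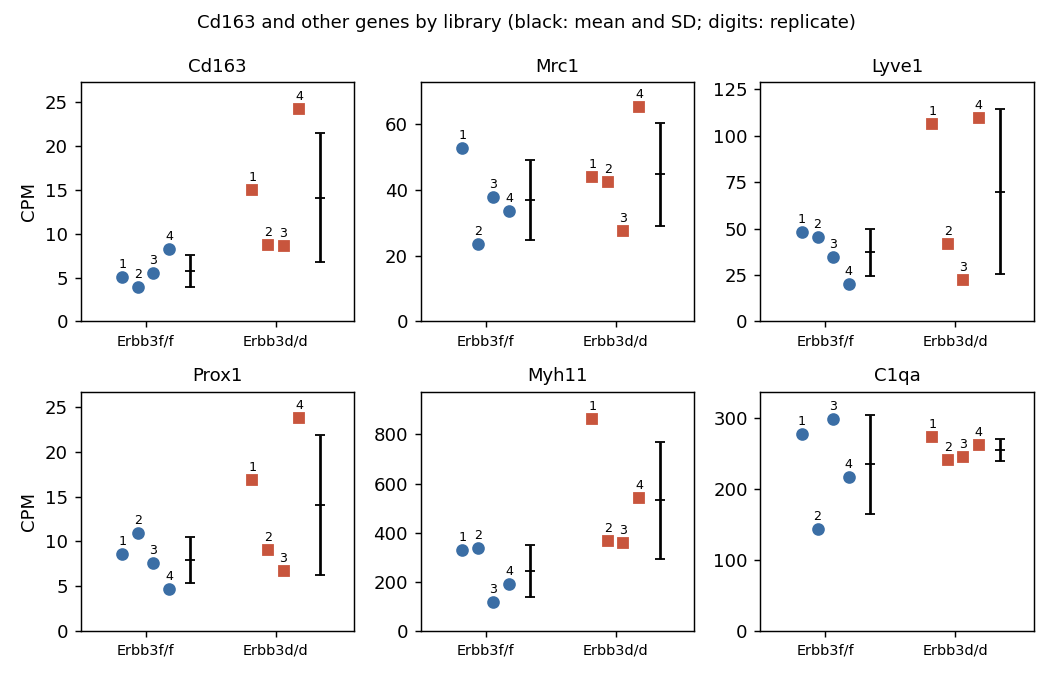
CPM (y axes, linear from 0) of Cd163, Mrc1, Lyve1, Prox1, Myh11 and C1qa in the 4 Erbb3f/f and 4 Erbb3d/d libraries (x axis); points are libraries with their replicate number, black marks the mean and SD. Erbb3d/d replicates 1 and 4 are the highest of their label in every panel shown, and C1qa stays between 144 and 299 CPM.

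The 3 chains of complement C1q varied together from library to library. C1qa had 279, 144, 299 and 218 CPM in Erbb3f/f and 273, 241, 246 and 263 CPM in Erbb3d/d, replicates 1 to 4 in order. Erbb3f/f replicate 2 was the lowest, and all Erbb3d/d libraries lay within the Erbb3f/f range. The ratio of C1qb to C1qa ran from 0.904 to 1.24 over the 8 libraries and that of C1qc to C1qa from 0.787 to 0.927. Log2 fold changes were 0.12 (SE 0.19) for C1qa, 0.17 (SE 0.22) for C1qb and 0.18 (SE 0.23) for C1qc.

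Lyz2 had 916, 630, 1780 and 845 CPM in Erbb3f/f and 1244, 957, 1194 and 1117 CPM in Erbb3d/d, replicates 1 to 4 in order. The lysosomal protein Cd68 had 61.3, 40.7, 134 and 77.0 CPM in Erbb3f/f and 84.4, 74.4, 96.6 and 98.3 CPM in Erbb3d/d. In both, Erbb3f/f replicate 3 was the highest and replicate 2 the lowest library, and the Erbb3d/d libraries lay between them. The macrophage growth factor receptor Csf1r had 90.1 to 167 CPM in Erbb3f/f and 129 to 160 CPM in Erbb3d/d, with a log2 fold change of 0.21 (SE 0.17). Its reads may include those of a gene on the other strand. Adgre1, the surface antigen F4/80, had 25.0 to 47.1 and 24.1 to 49.5 CPM. The chemokine receptor Cx3cr1 had 118, 111, 197 and 120 CPM in Erbb3f/f and 105 to 135 CPM in Erbb3d/d, so 1 library accounted for the higher Erbb3f/f mean. It too overlaps a gene on the other strand, and its log2 fold change of -0.20 (SE 0.18) was 0.03 without Erbb3f/f replicate 3. Without that same library 6 members had an unadjusted p under 0.05 in the higher direction (edgeR), namely Lyz2, Cd68, Csf1r, C1qb, Csf3r and Cd163, where 6.31% of all genes did. In a further list of 16 macrophage genes 15 passed the filter, and 10 were higher and 5 lower. Of these, 0 had an unadjusted p under 0.05 by edgeR, against 11.6% of all genes. Mpeg1, the pore protein perforin 2, was the most abundant of them per kilobase, with 743 ± 323 CPM (SD, n = 4) for Erbb3f/f, against 813 ± 72.0 CPM (SD, n = 4) for Erbb3d/d.

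Among the members, MHC class II genes had the smallest spread over the libraries. H2-Aa, the class II alpha chain, had 271, 194, 297 and 196 CPM in Erbb3f/f and 290, 249, 242 and 270 CPM in Erbb3d/d, replicates 1 to 4 in order. H2-Ab1, the beta chain with which it pairs, had 296, 224, 335 and 231 CPM in Erbb3f/f and 332, 276, 266 and 287 CPM in Erbb3d/d. Erbb3f/f replicates 2 and 4 were the lowest for both, and the Erbb3d/d libraries fell between them and replicate 3. The ratio of H2-Ab1 to H2-Aa ran from 1.06 to 1.18 over the 8 libraries, and that of H2-Eb1, the beta chain of the second class II molecule, to H2-Aa from 1.07 to 1.14. Any part of the Y box of H2-Aa and H2-Eb1 in these ratios was not tested, and H2-Ab1 had no window to search. Cd74 had 439 to 712 CPM in Erbb3f/f and 582 to 635 CPM in Erbb3d/d. Log2 fold changes of these 4 genes lay between 0.08 and 0.15, with SEs of 0.13 to 0.15. Flt3, the receptor through which dendritic cells develop, was low, with 2.92 to 5.19 CPM in Erbb3f/f and 1.98 to 4.25 CPM in Erbb3d/d and a log2 fold change of -0.48 (SE 0.32). A further 15 antigen presentation genes all passed the filter, with 7 higher and 8 lower. Of these, 0 had an unadjusted p under 0.05 by edgeR, against 11.6% of all genes. Irf8, a transcription factor of dendritic cells and macrophages and the most abundant of them per kilobase, had 132 ± 16.4 CPM (SD, n = 4) for Erbb3f/f, against 116 ± 9.59 CPM (SD, n = 4) for Erbb3d/d.

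Neutrophil genes varied more between libraries of one label than between labels. Csf3r, the receptor for granulocyte colony-stimulating factor, had 30.4, 17.8, 137 and 35.6 CPM in Erbb3f/f and 33.7, 31.6, 74.9 and 86.2 CPM in Erbb3d/d, replicates 1 to 4 in order. S100a8 had 1.36, 0.942, 14.2 and 2.49 CPM in Erbb3f/f and 1.28, 1.52, 4.33 and 7.28 CPM in Erbb3d/d. Its partner in the calcium-binding dimer calprotectin, S100a9, had 4.09, 1.99, 29.9 and 9.27 CPM in Erbb3f/f and 3.83, 4.32, 16.0 and 17.3 CPM in Erbb3d/d. Erbb3f/f replicate 3 was the highest for all 3 genes, followed by Erbb3d/d replicates 3 and 4. The ratio of S100a9 to S100a8 ran from 2.10 to 3.73. The summed level spanned 8.74-fold over the 8 libraries, and its log2 ratio between the labels was -0.01, or 1.03 without Erbb3f/f replicate 3. Of a further 10 neutrophil genes 4 passed the filter, 3 higher, among them Ltf, which the epithelial list also holds, and 1 lower. Il1b, the cytokine interleukin 1 beta and the most abundant of these per kilobase, had 56.6, 31.6, 263 and 83.3 CPM in Erbb3f/f and 67.8, 38.7, 156 and 184 CPM in Erbb3d/d, high in the same 3 libraries. The log2 fold change of Il1b was 0.04 (SE 0.68), and 0.97 without Erbb3f/f replicate 3. Il1b overlaps a gene on the other strand.

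Both B cell members that could be tested, Cd79a and Cd79b, were highest in Erbb3d/d replicate 3. Cd79a, a signalling chain of the B cell receptor, had 6.23, 8.38, 4.79 and 1.81 CPM in Erbb3f/f and 3.54, 4.08, 19.8 and 6.49 CPM in Erbb3d/d, replicates 1 to 4 in order. Its partner Cd79b had 3.80, 6.60, 8.25 and 3.17 CPM in Erbb3f/f and 4.03, 5.02, 16.5 and 7.81 CPM in Erbb3d/d. Apart from that library the labels overlapped, and the log2 fold change of Cd79a, 0.69 (SE 0.61), was -0.17 without it. Ms4a1, the antigen CD20, had 4, 7, 4 and 0 reads in Erbb3f/f and 0, 0, 5 and 1 reads in Erbb3d/d, with its highest value in Erbb3f/f replicate 2, and was not tested. Of 10 further B lineage genes, 8 were in the tables and 5 passed the filter, 3 higher and 2 lower. Jchain, which joins the units of secreted antibody and was the most abundant of them per kilobase, had 511, 1250, 635 and 212 CPM in Erbb3f/f and 601, 662, 3816 and 1300 CPM in Erbb3d/d. Its highest value was in Erbb3d/d replicate 3, as for Cd79a, and its log2 fold change was 1.29 (SE 0.69), adjusted p = 0.507 by edgeR. For Jchain it was 0.39 (SE 0.52) without that library.

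Cpa3, a carboxypeptidase of mast cell granules, had 4.68, 2.51, 9.19 and 1.92 CPM in Erbb3f/f and 3.64, 1.17, 0.946 and 5.18 CPM in Erbb3d/d, replicates 1 to 4 in order. It was highest in Erbb3f/f replicate 3 and Erbb3d/d replicate 4, and its log2 fold change was -0.75 (SE 0.63). That of Cpa3 was -0.15 without the former library and -1.26 without the latter. Of 8 further mast cell genes 6 passed the filter and all 6 were lower, where 52.0% of all genes were, with a median log2 fold change of -0.46. Without Erbb3f/f replicate 3 only 1 of the 6 was lower, and the median was 0.083. An unadjusted p under 0.05 by edgeR was found for 1 of the 6, against 4.97% of all genes in the lower direction. That gene was Hdc, which makes histamine and is also expressed outside mast cells. It had 239, 178, 174 and 138 CPM in Erbb3f/f and 97.4, 170, 93.5 and 125 CPM in Erbb3d/d. Only Erbb3d/d replicate 2 reached into the Erbb3f/f range, and the log2 fold change was -0.59 (SE 0.22), adjusted p = 0.356. Without that library Hdc had a log2 fold change of -0.79 (SE 0.18) and adjusted p = 0.0623, the lowest of the fits with 1 library left out, which reached 0.708. Hdc did not follow Cpa3 over the libraries, since Erbb3f/f replicate 1 was its highest.

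No eosinophil gene is among the members, and 9 were read beside them. In these, 4 passed the filter and all 4 were higher, where 52.0% of all genes tested were lower. Their median log2 fold change was 0.24. An unadjusted p under 0.05 by edgeR was found for 0 of the 4, against 6.64% of all genes for higher values. Without Erbb3d/d replicate 3, 3 of the 4 were lower and the median was -0.094. The lipoxygenase Alox15, also made by some macrophages and epithelia, was the most abundant per kilobase, with 72.5, 50.6, 51.1 and 96.7 CPM in Erbb3f/f and 96.2, 48.3, 171 and 198 CPM in Erbb3d/d. Erbb3d/d replicates 3 and 4 lay above all Erbb3f/f libraries, replicate 1 within their range and replicate 2 just below it, with a log2 fold change of 0.93 (SE 0.41) and an adjusted p of 0.432. Over all 69 further immune genes tested, 4 had an unadjusted p under 0.05 by edgeR (5.80%, against 11.6% of all genes) and 0 passed the adjusted threshold.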

How the data were processed

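RNA from 4 Erbb3f/f and 4 Erbb3d/d samples was sequenced as paired reads of 150 bases from libraries that do not mark strand, per the labels' protocols. The authors deposited 1 table of whole-number read counts per gene symbol and library. The submitters' processing notes name HISAT2, SAMtools, HTSeq and StringTie and the builds mm10 and GRCm38, and versions and roles are not given in the sources used here. The 5 lines per table that name no gene (70.9% to 73.0% of each library) were left out. Counts were scaled by TMM (factors 0.987 to 1.02), filtered with filterByExpr and tested with edgeR 4.0.16 (glmQLFit, robust, and glmQLFTest; R 4.3.3) over 14598 genes with Benjamini-Hochberg adjustment at 0.05; the script was tested on simulated data. SEs were taken from the fold change and the F statistic. CPM used the scaled library size, and exon lengths and coordinates came from GENCODE vM21 (GRCm38), in which overlapping genes share reads.

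Alternatives were 3 other scalings, no filter, a mean of at least 1 CPM, DESeq2 1.42.0, the replicate number as a block, and leaving out each library. The replicate number was not used in the reported fit. The members and lists were chosen with earlier results of these data known. Every member is named; of the further genes, the most abundant per kilobase of each lineage and any that passed the adjusted threshold are named, and others were chosen after their values were seen, including Eomes, Cd28, Lyve1 and Prox1. Of 96 further immune genes 88 were in the tables, 3 of them under older symbols.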

Additional observations from a re-analysis of the deposited data

Results flagged for a closer look

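In 92 groups of 4 libraries, 5 had a library far from the other 3 by Dixon's criterion, where chance gives about 1 in 20 groups, or 4.6. Erbb3f/f replicate 3 was the library in 4 of them. It had 197 CPM of Cx3cr1, with the next library at 120 CPM, 14.2 CPM of S100a8, with the next at 2.49 CPM, and 137 CPM of Csf3r, with the next at 35.6 CPM. Its summed neutrophil genes were 181 CPM, with the next library at 47.4 CPM. Csf3r makes up 78.8% of that sum, which also holds S100a8, so these groups are not separate. The library in the remaining flagged group was Erbb3d/d replicate 2, with 105 CPM for the summed NK cell genes and the next library of its label at 45.7 CPM.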

How the results depend on the processing

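Over all genes edgeR called 0 genes, 52 with the replicate number as a block, DESeq2 258, and 0 to 259 with 1 library left out, 259 without Erbb3d/d replicate 2. Members called were 2 with DESeq2 (Cd163 and Gzmb) and 0 to 2 with 1 library left out, 2 without Erbb3d/d replicate 2 (Gzmb and Prf1). Members lower at an unadjusted p under 0.05 by edgeR numbered 2 to 6, with 2 without Erbb3f/f replicate 4 and 2 without Erbb3d/d replicate 3. In the reported fit 4.97% of all genes were lower at that p, and that share was not taken with a library left out. Members higher at that p numbered 1 to 6, with 6 without Erbb3f/f replicate 3, where 6.31% of all genes were. The block called 0 members. It turned S100a8 to 0.013 and S100a9 to 0.17. Same-numbered libraries correlated at 0.221, 0.159, 0.0959 and 0.145, and not every library correlated best with its own number, so the numbers were not taken as pairs. With 1 library left out, log2 fold changes changed sign in 15 members. They ran from -0.24 to 0.065 for Ptprc, -0.27 to 0.13 for Cd52, -0.22 to 0.15 for Fcer1g, -0.028 to 0.57 for Cd68, -0.081 to 0.23 for Adgre1, -0.052 to 0.50 for Lyz2, -0.042 to 0.26 for C1qa and -0.0024 to 0.38 for C1qc. They ran from -0.28 to 0.028 for Cx3cr1, -0.033 to 0.20 for Cd74, -0.93 to 0.082 for Gzma, -0.17 to 0.996 for Cd79a, -0.98 to 1.19 for S100a8, -0.48 to 1.03 for S100a9 and -0.24 to 1.02 for Csf3r. The cause was not tested. All 6 NK cell members were lower under every alternative but 1, without Erbb3f/f replicate 4, where 5 were. No other immune gene was called under any alternative. Low read counts limit members such as Gzma, Cd3g, S100a8, Flt3, Ms4a1, Cpa3, Cd79a, Klrb1c and S100a9. Cpa3, the only mast cell member, had 10 to 117 reads per library.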
